A study of Mus musculus with 2 samples.

Results

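The miR-10 and miR-196 families are microRNAs (miRNAs, short RNAs that repress messenger RNAs) whose genes lie inside the Hox clusters, and 4 of the 567 mouse miRNAs on the array belong to them: mmu-miR-10a, mmu-miR-10b, mmu-miR-196a and mmu-miR-196b, called miR-10a, miR-10b, miR-196a and miR-196b here. They were taken by their array names, without the passenger-strand entries marked with an asterisk. The RNA came from adipocyte-derived microvesicles, membrane vesicles shed into the medium by 3T3-L1 cells, a mouse fibroblast-like line that becomes lipid-laden adipocytes after hormonal induction with 10 µg/ml insulin, 0.25 µM dexamethasone and 0.5 mM 3-isobutyl-1-methylxanthine in medium with 10% fetal calf serum. Vesicles were pelleted by ultracentrifugation from medium conditioned for 48 h, late (day 8 to 10) or early (day 2 to 4) after induction. Each window was measured on 1 single-colour Agilent array, with 100 ng of RNA labelled. Signals are therefore relative to the RNA labelled and are not amounts per vesicle or per volume of medium. With 1 array per window there was no test, the number of arrays limited the precision, and the standard errors given below cover only the spread between spots of an array.

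Hox genes encode the transcription factors that lay out the head-to-tail axis of the embryo, and cells of mesenchymal origin such as fibroblasts and adipocyte precursors keep a Hox pattern that reflects their place in the body. The miR-10 and miR-196 genes sit between the Hox genes, are often transcribed together with their neighbours and in turn repress Hox messenger RNAs, the best-known case being the cleavage of mouse Hoxb8 messenger RNA directed by miR-196. In mouse white fat, miR-196a is known to favour brown adipocyte formation by repressing Hoxc8. In the RefSeq names table of GRCm38.p6, Mir10a lies inside Hoxb3 on chromosome 11, between Hoxb5 and Hoxb4, and Mir10b inside Hoxd3 and Hoxd4 on chromosome 2. Mir196a-1 lies between Hoxb13 and Hoxb9 on chromosome 11, Mir196a-2 between Hoxc10 and Hoxc9 on chromosome 15, and Mir196b between Hoxa9 and Hoxa10 on chromosome 6. The 5 genes therefore cover the 4 mammalian Hox clusters.

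The mature sequences are shown because members of a pair can be told apart by 1 base only. They are the RefSeq 5p arms on GRCm38.p6, matched by name for 4 of 4 members and given 5′ to 3′, with the seed (bases 2 to 8, which pair with targets) in capitals.
miR-10a (chr11:96317186-96317208, plus strand): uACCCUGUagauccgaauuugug
miR-10b (chr2:74726074-74726096, plus strand): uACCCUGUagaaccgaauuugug
miR-196a (chr11:96265187-96265208 and chr15:102973365-102973386, plus strand): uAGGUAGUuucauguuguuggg
miR-196b (chr6:52230129-52230150, minus strand): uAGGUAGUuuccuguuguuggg
miR-10b and miR-10a differed by A12U (miR-10b base, position from the 5′ end, miR-10a base), and miR-196b and miR-196a by C12A in the same notation. Each pair therefore shares its seed, and among the 1679 mature mouse miRNAs in the RefSeq table no other had either seed at bases 2 to 8. The miR-196 seed letters AGGUAGU also stand 1 base further in, at bases 3 to 9, in let-7 family members. miR-196a has 2 genes with the same mature sequence, which an array cannot separate.

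The array carried 2 probes each for miR-10a, miR-10b and miR-196b and 4 for miR-196a. The files give each probe a span on the genome, in a genome build that the files do not name, and the probes of a miRNA share one end and differ in length by 1 base. For miR-10b the spans were 20 and 21 bases on chromosome 2, from 74564134 and 74564133 to 74564153, and miR-10a also had spans of 20 and 21 bases. The spans were 19 to 22 bases for miR-196a and 19 and 20 bases for miR-196b. A span of 20 bases inside a miRNA of 23, or of 19 inside one of 22, always includes base 12, so every one of these spans covered the base that separates the pair.

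miR-10b was detected in the vesicle RNA of both windows, and miR-10a, miR-196a and miR-196b were not well above background in either. A probe was counted as detected where more than 0.5 of its spots carried the scanner software's flag for signal well above background, and a miRNA needed at least 1 such probe. By this rule 1 of the 4 members was detected at day 8-10 and 1 at day 2-4, beside 29.3% and 27.5% of all 567 mouse miRNAs. The software's own detection flag gave the same division. No spot of any mouse miRNA was saturated.

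miR-10b, of the Hoxd cluster, gave tight spot signals on both arrays. Its probe with the 20-base span read 30.3 to 34.3 intensity units over 10 spots (median 32.3) at day 8-10, against 41.9 to 46.9 (median 43.2) at day 2-4. Its probe with the 21-base span read 98.4 to 111 intensity units over 10 spots (median 104) at day 8-10, against 133 to 141 over 9 spots (median 136) at day 2-4. All 20 spots at day 8-10 and all 19 used at day 2-4 were flagged well above background, and on neither probe did the spots of the arrays overlap. The software had set aside 1 further spot of the 21-base probe at day 2-4 as an outlier, at 125.4 intensity units. The variation between spots was small, with coefficients of variation of 5.13% and 3.31% at day 8-10 and of 4.19% and 1.96% at day 2-4 for the shorter and longer spans. The longer span gave 3.24 times the signal of the shorter one at day 8-10 and 3.13 times at day 2-4.

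**Figure D1:**
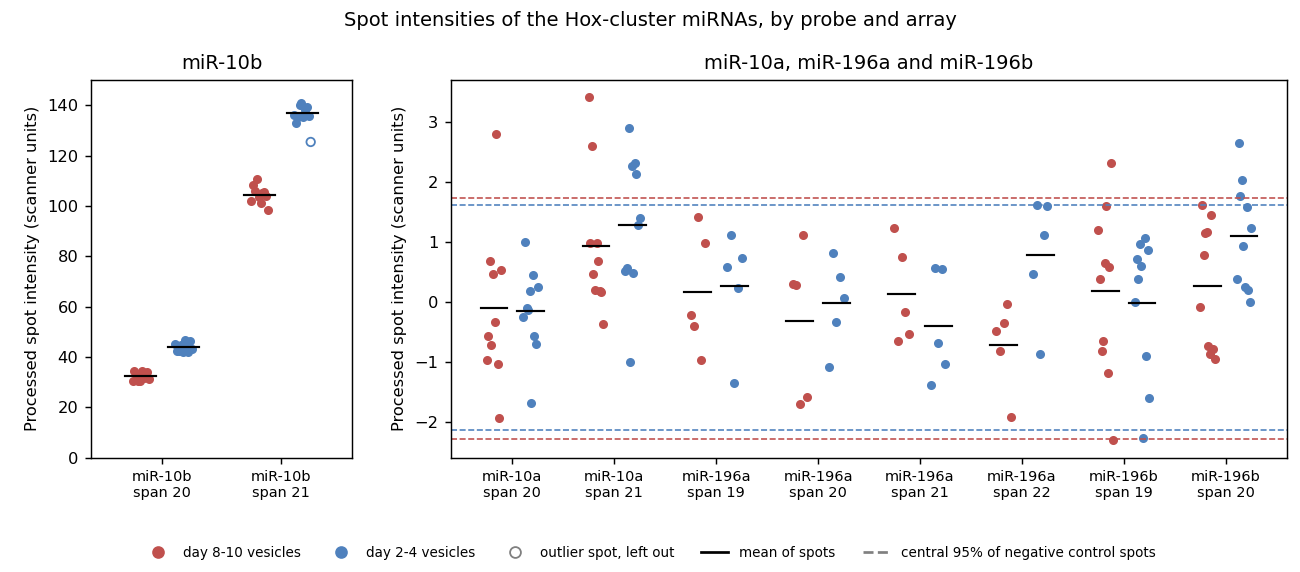
Processed intensity (scanner units, linear) of each spot of the 4 miRNAs, by probe and its span in bases, day 8-10 left of day 2-4. Black bars are means of spots, the open circle is the outlier spot, and dashed lines bound the central 95% of negative control spots on each array. The miR-10b spots lie between 30.3 and 141, while all spots of the other members stay at or below 3.41.

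After scaling, miR-10b was slightly lower in late vesicles, by less than 2-fold. Signals were divided by a 75th percentile, taken per array from the 279 probes that both arrays detected, of 95.2 intensity units at day 8-10 and 108 at day 2-4. The scaled signal of the shorter span was then 0.318 to 0.360 at day 8-10, against 0.387 to 0.433 at day 2-4, and that of the longer span 1.03 to 1.16, against 1.23 to 1.30. The spots still did not overlap, although the outlier spot, at 1.158, would lie just under the highest day 8-10 spot at 1.162. The mean over both probes, taken on log2 values and converted back, was 0.609 at day 8-10 and 0.715 at day 2-4. This is a log2 difference of -0.23 (spot SE 0.017, 1 array per window), or 1.17-fold lower in late vesicles. The probes gave -0.26 (spot SE 0.030) for the shorter span and -0.21 (spot SE 0.018) for the longer one, so they moved alike.

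Under the reported scaling the difference of miR-10b was smaller in size than that of most miRNAs, and on the low side of the array. A miRNA detected on both arrays was called higher or lower where it differed by at least 2-fold and by more than 2 spot SE, which held for 23.4% of the 145 such miRNAs (15.9% higher and 7.59% lower at day 8-10). The split was 23 higher and 11 lower, and 10 higher and 29 lower when all probes set the 75th percentile. miR-10b was not called. Over these 145 the median log2 difference was 0.20, with a central range from -0.22 (25th percentile) to 0.73 (75th percentile), and miR-10b lay 0.44 below that median. It ranked above 35 of the 145, and 38 had a difference closer to 0. The count of 38 depends on the scaling, which moves the point of 0, and was not computed under other scalings.

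Of 11 other ways of scaling, background correction, spot averaging and probe choice, 3 left the miR-10b value as it was, since both of its probes were detected on both arrays and lay above the floor. Under the other 8 its log2 difference ran from -0.74 to -0.10, with the same sign and short of 2-fold in each. Rescaling an array shifts all miRNAs alike, so the distance of 0.44 below the median could not move with it. Other choices did move it. miR-10b minus the median was -0.22 with normexp background correction, -0.30 with quantile normalization and -0.48 with all probes of each miRNA. Preparation, hybridisation and window cannot be told apart.

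**Figure D2:**
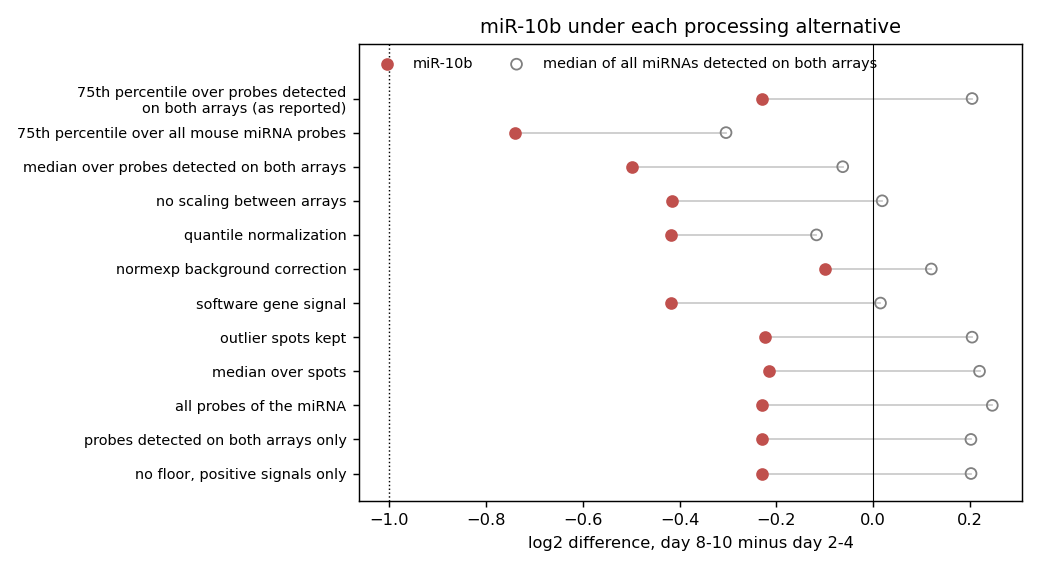
Log2 difference (day 8-10 minus day 2-4) of miR-10b (filled) and of the median miRNA detected on both arrays (open) under the reported setting, at the top, and 11 alternatives. The dotted line marks a 2-fold decrease, and miR-10b lies between -0.74 and -0.10 throughout.

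miR-10a, of the Hoxb cluster and 1 base away from miR-10b, was not well above background on any spot. Its 20 spots ran from -1.94 to 3.41 intensity units (median 0.32) at day 8-10, against -1.70 to 2.89 (median 0.46) at day 2-4. The negative control spots ran from -3.13 to 2.83 (median -0.33, 656 spots) at day 8-10 and from -3.21 to 2.70 (median -0.23, 660 spots) at day 2-4. The arrays overlapped almost entirely for miR-10a, and 1 of its spots on each array exceeded the highest negative control spot. Above the central 95% of negative controls lay 3 of its 20 spots at day 8-10 and 4 of 20 at day 2-4, more than for miR-196a or miR-196b. On the longer span, of 21 bases, 2 of 10 spots at day 8-10 and 6 of 10 at day 2-4 passed the software's weaker flag for a signal positive and significant over background, against 1 and none on the shorter span. On arrays that gave miR-10b spots of up to 111 intensity units at day 8-10 and 141 at day 2-4, the probes for its 1-base neighbour averaged at most 0.92 at day 8-10 and 1.28 at day 2-4.

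miR-196a, made from the Hoxb and Hoxc clusters, showed no spot above the central 95% of negative controls. Its 20 spots ran from -1.92 to 1.42 intensity units (median -0.29) at day 8-10, against -1.38 to 1.61 (median 0.44) at day 2-4. The means of its 4 probes ran from -0.72 to 0.16 at day 8-10, against -0.40 to 0.78 at day 2-4. The sequence-related let-7 members gave signal on the same arrays. All 8 array entries that hold AGGUAGU at bases 3 to 9 were detected in both windows, beside 145 of all 567 mouse miRNAs. These 8 were let-7a, b, c, d, f, g and i, and miR-98.

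miR-196b, of the Hoxa cluster, was likewise undetected. Its 20 spots ran from -2.32 to 2.31 intensity units (median 0.48) at day 8-10, against -2.27 to 2.64 (median 0.65) at day 2-4. Of these, 1 at day 8-10 and 3 at day 2-4 lay above the central 95% of negative controls, and none above their highest spot.

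The weaker flag placed the undetected members near other undetected miRNAs. Over the 60 spots of miR-10a, miR-196a and miR-196b, 21.7% at day 8-10 and 26.7% at day 2-4 were positive and significant, beside 22.2% and 20.4% over the spots of all 390 mouse miRNAs detected in neither window, and 9.30% and 9.09% over negative control spots. Had a probe been counted on that flag, miR-10a and miR-196a would have joined miR-10b at day 2-4, beside 44.8% of all mouse miRNAs. At day 8-10 miR-10b alone of the members would pass, beside 47.1% of all. The pass of miR-196a rested on 3 of 5 spots of its 22-base span. miR-196b would miss at 5 of 10 spots of its 20-base span. Yet miR-196b had more flagged spots, 7 of 20 at day 8-10 and 6 of 20 at day 2-4, against 3 and 4 of 20 for miR-196a. The lowest mean signals of any detected probe were 5.55 intensity units at day 8-10 and 4.86 at day 2-4. By definition no probe with a smaller mean on its array was counted as detected, so these values are no separate test of the undetected members. No fold is given for the 3 undetected members.

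Other products of the same Hox loci were undetected too. None of the passenger strands miR-10a*, miR-10b* and miR-196a*, nor miR-615-5p and miR-615-3p from a gene inside Hoxc5, was well above background in either window. This makes 0 of 5 such entries on the array, beside 29.3% of all 567 mouse miRNAs at day 8-10 and 27.5% at day 2-4. With 5 entries, the count cannot be told apart from those shares. Their median spot signals ran from -0.47 to 0.19 intensity units at day 8-10, against -0.81 to -0.071 at day 2-4. For miR-10b, whose passenger strand had a median of -0.47 at day 8-10 and -0.81 at day 2-4, signal was thus seen for 1 arm only.

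The closest sequence relatives outside the Hox clusters are miR-99a, miR-99b and miR-100, counted with miR-10 as one ancient family and lying next to let-7 and miR-125 genes. Their seed, ACCCGUA, differs from that of miR-10, and they are shown for the stretch they share with one or the other miR-10, in capitals in these RefSeq sequences of GRCm38.p6.
miR-99a, sharing with miR-10a (chr16:77598940-77598961, plus strand): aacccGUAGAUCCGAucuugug
miR-100, sharing with miR-10a (chr9:41531437-41531458, plus strand): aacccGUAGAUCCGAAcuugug
miR-99b, sharing with miR-10b (chr17:17830194-17830215, plus strand): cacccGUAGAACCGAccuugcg
These stretches of 10, 11 and 10 bases begin at base 7 of miR-10 and base 6 of the relative, and they include the base that separates miR-10a from miR-10b. miR-99a and miR-100 were detected in both windows while miR-10a, which has their version of the stretch, was not.

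All 5 of these relatives and cluster partners (miR-99a, miR-99b, miR-100, miR-125a-5p and miR-125b-5p) were detected in both windows, beside 145 of all 567 mouse miRNAs. None of the 5 passed the 2-fold rule, beside 23.4% of those 145. The median log2 difference of the 5 was -0.16, against 0.20 over all 145 miRNAs. miR-99a was the furthest, with a scaled signal of 0.728 at day 8-10 and 1.22 at day 2-4 (log2 difference -0.74, spot SE 0.029). miR-125b-5p had -0.25, close to miR-10b, and miR-99b had -0.068. miR-100 had -0.16 over both of its probes, and -0.36 with only the probe detected on both arrays. miR-125a-5p was on the other side at 0.35, which turned to -0.16 when all probes set the 75th percentile and to -0.12 with quantile normalization. miR-99b and miR-100 turned to 0.054 and 0.0064 with normexp background correction.

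**Figure D3:**
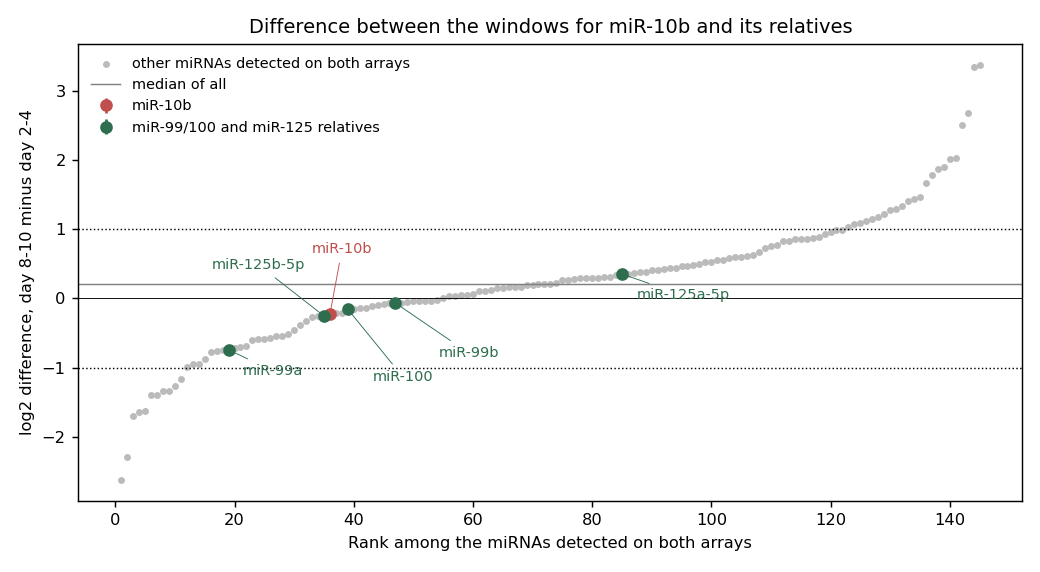
Log2 difference (day 8-10 minus day 2-4) of the 145 miRNAs detected on both arrays, in rank order, with miR-10b and its 5 relatives marked. Bars are spot SE and are mostly smaller than the points, dotted lines mark 2-fold, and the grey line is the median of 0.20. miR-10b, at -0.23, sits between miR-125b-5p and miR-100, and none of the marked miRNAs reaches a dotted line.

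The miRNAs most like miR-10b over the 2 arrays, by the distance of their log2 scaled signals among 144 others, were miR-193b (distance 0.18), miR-26a (0.25) and let-7e (0.30). The likeness is one of array readings, since probes differ in how brightly they read. Their log2 differences were -0.034 for miR-193b, -0.048 for miR-26a and -0.39 for let-7e.

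The markers of the cells set a scale for these values. Of 6 adipocyte or adipogenic miRNAs (miR-103, miR-107, miR-143, miR-378, miR-30c and miR-148a), 5 were called higher at day 8-10, beside 15.9% of all, with a median log2 difference of 1.40. That count was 2 when all probes set the 75th percentile and 2 with normexp. Of 6 fibroblast entries on the array, 5 were detected in both windows and miR-145 was not. Of these 5, 2 were called lower (miR-199a-5p at -1.40 and miR-214 at -1.63), beside 7.59% of all, while miR-199b had -0.95, miR-21 0.16 and miR-22 0.59. The count called lower was 3 when all probes set the 75th percentile and 1 with normexp. Of 6 blood and serum miRNAs, 4 were detected at day 8-10 and 3 at day 2-4, beside 29.3% and 27.5% of all. miR-144 was detected at day 8-10 only, with a scaled signal of 0.0703. The median difference was 0.043 over the 3 blood and serum miRNAs detected in both windows, and the liver miRNA miR-122 was undetected. Scaled signals at day 8-10 and day 2-4 were 6.64 and 6.45 for miR-451, against 0.609 and 0.715 for miR-10b. They were 0.112 and 0.109 for miR-486, and 0.106 and 0.124 for miR-223. The part of serum in the miR-10b signal was not tested.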

How the data were processed

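The deposited intensity of each spot is linear. Per the file headers, Agilent Feature Extraction 9.5.3.1 subtracted a fitted background surface and did not normalize between the arrays. The deposited series value table held the same intensity for 24986 of 24986 spots (relative tolerance 1e-06), so it was linear and not centred, with medians of 0.646 at day 8-10 and 0.516 at day 2-4. Outlier spots of mouse miRNAs (249 at day 8-10 and 237 at day 2-4) and control spots were left out. Spots were scaled, floored at the signal of the lowest detected probe of their array, log2 transformed and averaged per probe, then over the probes of a miRNA detected on at least 1 array. The arrays shared 1 slide and 1 scan.

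Python 3.11.15 and, for normexp with an offset of 50, limma 3.58.1 in R 4.3.3 were used. The calculation was also run on simulated arrays. These were all built from the day 2-4 signals, so they could not test the scaling between unlike arrays. All members, every detected relative and the 3 nearest miRNAs were named. The members and lists were chosen with earlier results of these data known.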

Additional observations from a re-analysis of the deposited data

How the results depend on the processing

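Apart from 3 alternatives that could not move it, the log2 difference of miR-10b was negative and under 2-fold in each alternative, and with each probe alone. It was -0.74 with the 75th percentile over all probes, -0.50 with the median of detected probes, -0.42 without scaling, -0.42 with quantile normalization, -0.42 with the software's gene signal and -0.10 with normexp. In the same order of settings the median of the 5 relatives was -0.67, -0.42, -0.34, -0.47, -0.52 and 0.0064, against -0.16 as reported. It was -0.22 with medians over spots, -0.25 with only probes detected on both arrays and -0.25 without a floor. miR-99a passed the 2-fold rule at -1.25 with the percentile over all probes and at -1.01 with the median of detected probes. The causes were not tested.

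The share of all miRNAs called fell to 6.90% with normexp (5 higher and 5 lower), against 23.4% as reported. The split of higher and lower calls was 23 and 11 as reported, 10 and 29 with the percentile over all probes, 16 and 19 with the median of detected probes, 17 and 15 without scaling, 17 and 17 with quantile normalization, and 19 and 18 with the software's gene signal, which also replaces the averaging of spots and probes. The number of members detected at day 2-4 was 3 with the positive-and-significant flag and 1 in the other settings. No difference between windows was computed for miR-10a, miR-196a and miR-196b, and single probes were run for miR-10b only. Signal over background limits what can be said of these members. The alternatives for the marker lists were chosen after seeing the data.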
